A study of Homo sapiens with 3 samples.

Results

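The heat shock and chaperone genes described here were 10 genes, HSPA1A, HSPA1B, HSPA5, HSPA8, HSPH1, DNAJB1, HSP90AA1, HSPB1, HSF1 and BAG3, of 27274 gene names measured on the arrays. They were selected by name alone, as every probe whose gene name equalled 1 of the 10 and that was not a control, which gave 17 of 34127 probes and 35 spots. RNA came from HepG2 cells, an established human hepatocellular carcinoma line, and was hybridized to 1-color Agilent arrays of 60-base probes. There were 3 conditions with 1 array each: untreated cells (0 μM etoposide, called control here), cells given 10 μM etoposide and cells given 100 μM etoposide, all collected after 30 h. Etoposide is an anticancer drug that traps topoisomerase II on DNA and leaves double-strand breaks. The labels call the control untreated, whereas the study's own comparison is against DMSO, the solvent, so a fold over control here may be a fold over solvent. The study compared the 2 doses with control cells and with each other. With 1 array per condition, no difference between conditions has a replicate check, and every fold change below describes these 3 arrays.

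Heat shock proteins are molecular chaperones that hold, refold or hand over unfolded proteins. HSP70 proteins bind exposed hydrophobic stretches and release them in an ATP cycle that J domain proteins such as DNAJB1 start and that nucleotide exchange factors such as HSPH1 and BAG3 reset. HSP90 acts on nearly folded clients, and small HSPs such as HSPB1 hold unfolded protein without ATP. HSF1 is the transcription factor that, on proteotoxic stress, forms a trimer and binds heat shock elements, which are arrays of inverted GAA units upstream of many of these genes. HSPA1A and HSPA1B are the stress-inducible HSP70 genes, whereas HSPA8 is the constitutive one and HSPA5 (BiP) is the HSP70 of the endoplasmic reticulum, where the unfolded protein response rather than HSF1 mainly controls it.

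The 250 bases before the annotated start were taken from RefSeq (GRCh38.p14) and searched on both strands for the heat shock element letters GAANNTTC and TTCNNGAA, each of which reads the same on either strand. Longer arrays, in which 2 free bases and a further GAA or TTC unit continue the alternation, contain both motifs and so overlap them. A window was found for 9 of the 10 genes, with 12 windows in all because DNAJB1 and HSP90AA1 have several annotated starts. Either short motif was present in 6 of the 12 windows, compared with 11.6% of the 35116 windows in the table. A longer array was present in 2 of the 12 windows, 1 each of HSPA8 and HSP90AA1, compared with 0.441% of all windows. The 4 genes that were more than 1.5-fold higher at 100 μM are printed first, followed by HSPA8 and HSP90AA1, which hold the longer arrays. The sequences run 5′ to 3′ on the strand of the gene, and capitals mark the bases that match.
HSPA1A, chr6:31815293-31815542, plus strand: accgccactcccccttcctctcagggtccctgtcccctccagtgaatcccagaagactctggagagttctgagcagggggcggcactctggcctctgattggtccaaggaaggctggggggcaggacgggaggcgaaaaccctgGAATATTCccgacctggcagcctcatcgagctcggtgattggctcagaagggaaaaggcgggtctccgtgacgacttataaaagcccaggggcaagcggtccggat
HSPA1B, chr6:31827488-31827737, plus strand: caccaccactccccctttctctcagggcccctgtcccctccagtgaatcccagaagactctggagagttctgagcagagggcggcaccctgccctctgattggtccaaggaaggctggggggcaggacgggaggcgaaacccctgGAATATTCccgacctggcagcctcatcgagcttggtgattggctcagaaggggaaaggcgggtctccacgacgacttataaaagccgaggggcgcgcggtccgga
DNAJB1, chr19:14518398-14518647, minus strand: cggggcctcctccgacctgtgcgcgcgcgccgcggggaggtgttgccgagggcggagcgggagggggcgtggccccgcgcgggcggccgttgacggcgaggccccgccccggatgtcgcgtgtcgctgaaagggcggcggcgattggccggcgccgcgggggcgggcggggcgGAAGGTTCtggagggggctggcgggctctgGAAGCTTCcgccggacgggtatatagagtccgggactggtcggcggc
HSPB1, chr7:76302423-76302672, plus strand: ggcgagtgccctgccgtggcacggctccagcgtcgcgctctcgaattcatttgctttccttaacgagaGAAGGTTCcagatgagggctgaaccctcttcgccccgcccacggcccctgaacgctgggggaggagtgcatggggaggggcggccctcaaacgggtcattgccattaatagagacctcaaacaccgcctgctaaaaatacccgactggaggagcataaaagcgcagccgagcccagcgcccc
HSPA8, chr11:123062137-123062386, minus strand: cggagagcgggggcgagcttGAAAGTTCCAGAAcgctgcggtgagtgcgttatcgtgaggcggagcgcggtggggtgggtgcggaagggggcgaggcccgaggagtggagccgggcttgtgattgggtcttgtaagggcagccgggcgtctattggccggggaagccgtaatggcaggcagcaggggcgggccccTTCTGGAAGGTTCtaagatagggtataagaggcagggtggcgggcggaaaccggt
HSP90AA1, chr14:102087045-102087294, minus strand: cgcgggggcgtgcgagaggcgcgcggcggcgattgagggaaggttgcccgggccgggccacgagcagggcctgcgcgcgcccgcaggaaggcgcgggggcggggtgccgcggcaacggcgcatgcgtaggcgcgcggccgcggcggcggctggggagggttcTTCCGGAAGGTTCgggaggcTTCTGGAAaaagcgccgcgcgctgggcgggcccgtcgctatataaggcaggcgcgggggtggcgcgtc
HSPA1A and HSPA1B are neighbours on chromosome 6, and their windows were identical at 235 of 251 aligned columns (93.6%), with the same GAATATTC starting 106 and 105 bases before the start. DNAJB1 held GAAGGTTC and GAAGCTTC, and HSPB1 held GAAGGTTC 182 bases before its start. HSPA8 held a longer array toward each end of its window and HSP90AA1 held 1 together with a separate TTCTGGAA. None of these letters was in the windows of HSPA5, HSPH1 or BAG3. The remaining windows of DNAJB1 and HSP90AA1, at other annotated starts, also held none and are not printed. A match describes letters only, and binding of HSF1 was not measured.

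Signals are the background-subtracted intensities of the scanner software. Before a fold change was taken, the log2 signal of each probe was reduced by that of the array's 75th percentile, a signal of 514 on the control array, 536 on the 10 μM array and 432 on the 100 μM array, so that a signal ratio between control and 100 μM is smaller than the fold change given. The error of a log2 fold change combines the spot-to-spot SDs of the 2 arrays. For a probe with 10 spots it is the error of a mean, from the probe's own spots. For a probe with 1 spot it is the SD of a single spot, from the 50 repeated probes nearest in signal. Errors of the 2 kinds are therefore not comparable between genes. The error covers 1 array each and not cultures. Of the 17 probes, 15 were well above background on all 3 arrays, and the other 2 on none. Every gene had at least 1 measured probe, and its brightest probe stands for it. Positions of probes are given on hg18, as in the files, and whether a probe lies in a coding or untranslated exon was not analysed here.

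At 10 μM, 9 of the 10 genes were higher than in control cells and HSPA5 was lower. Of the 16718 genes tested on the array, 45.2% were higher and 54.4% lower. The median of the 10 was 0.39 on the log2 scale, compared with -0.03 over all 15449 genes measured on both arrays. HSPA1A was the only 1 of the 10 past 2-fold (3.37% of all genes tested were higher by that much), and it was also past 3-fold (1.29%). At 3.05-fold it sat at the 3-fold threshold, and with quantile scaling it was at 1.54 on the log2 scale, below 3-fold. HSPA1A and HSPA1B were past 1.5-fold (9.03%), and none was lower by more than 1.5-fold (6.48%). At 100 μM, 8 of the 10 were higher than in control cells (56.9% of 16981 genes tested), HSPA8 and HSP90AA1 were lower (41.9%; HSP90AA1 at 0.00 on the log2 scale), and the median was 0.51, compared with 0.09 over all genes. Over 7 ways of scaling the arrays 1 to 4 of the 10 were lower, and their median ranged from 0.22 to 0.57. The median of all genes moved with it, to -0.20 at its lowest. HSPA1A and HSPA1B were then past 2-fold (6.76%), HSPA1A also past 3-fold (1.86%), and DNAJB1 and HSPB1 joined them past 1.5-fold (18.4%), with no gene lower by 1.5-fold (9.7%). Without scaling DNAJB1 was at 0.37 and HSPB1 at 0.45 on the log2 scale, below 1.5-fold. Both comparisons use the same control array.

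**Figure D1:**
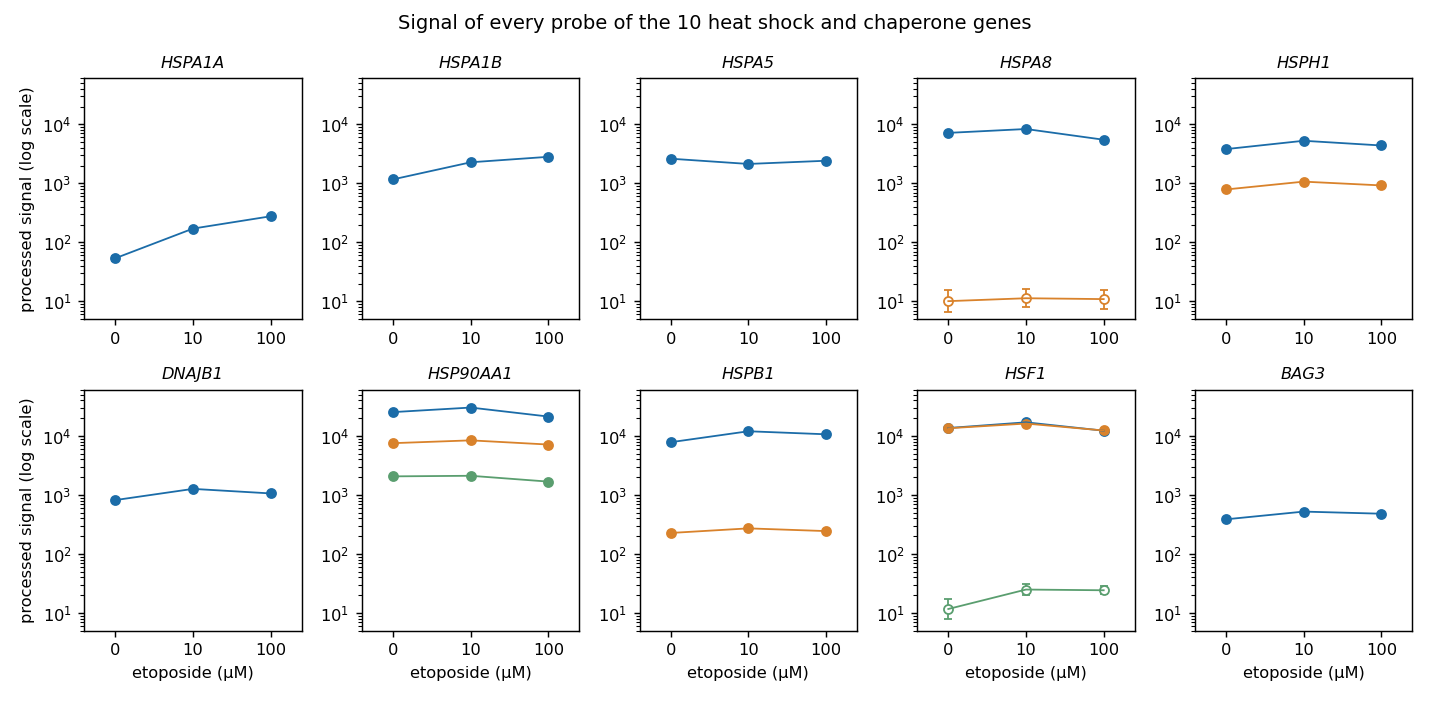
Processed signal (log scale) of all 17 probes of the 10 genes against the etoposide dose (μM), 1 panel per gene and 1 line per probe. Filled points are well above background and open points are not, bars are the spot-to-spot SD and are mostly smaller than the points. HSPA1A climbs from 53.8 through 171 to 277 and HSPA1B from 1168 through 2276 to 2818, while the lines of most other genes stay close to level.

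HSPA1A, the stress-inducible HSP70 (NM_005345; probe on chromosome 6 of hg18 from 31893470 to 31893529), is spotted 10 times on each array. Its spots ranged from 45.1 to 62.8 with a median of 53.7 in control cells, where 9 spots were used, from 157 to 200 with a median of 171 at 10 μM, and from 245 to 293 with a median of 280 at 100 μM. The spots of the 3 arrays did not overlap, and the order was control, 10 μM, 100 μM. HSPA1A was 3.05-fold higher at 10 μM (log2 1.61 ± 0.056) and 6.12-fold higher at 100 μM (log2 2.61 ± 0.052) than in control cells. These changes lay at the 99.2 and 99.9 percentiles of all genes measured. It was 2.01-fold higher at 100 μM than at 10 μM, so the ratio of 10 μM to 100 μM was 0.498. With another background correction (normexp with an offset of 50) the changes were smaller, 0.96 and 1.76 on the log2 scale. The first was then below 2-fold. The offset is a chosen constant added to every signal, and it is close to the control median of 53.7. It therefore lowers these fold changes by itself, and normexp without the offset was not tested.

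HSPA1B, which encodes the same HSP70 protein from the neighbouring gene (NM_005346; chromosome 6, 31905849 to 31905908), had a signal of 1168 in control cells, 2276 at 10 μM and 2818 at 100 μM. The order was that of HSPA1A. The fold change was 1.87 at 10 μM (log2 0.90 ± 0.063) and 2.87 at 100 μM (log2 1.52 ± 0.067), at the 96.7 and 98.7 percentiles. The change of HSPA1A was larger than that of HSPA1B by 0.71 on the log2 scale at 10 μM and 1.09 at 100 μM. The error of that difference was 0.084 and 0.085. It combines both kinds of error and leaves out the spread between cultures. With normexp and its offset of 50, HSPA1B was at 0.87 and 1.44 and HSPA1A at 0.96 and 1.76, a smaller difference. The offset is close to the HSPA1A control signal of 53.8 and small beside the HSPA1B control signal of 1168. It therefore lowers the fold change of HSPA1A more than that of HSPA1B. How much of the difference remains without the offset was not tested. The 2 probes matched at no more than 23 of 60 bases in any ungapped alignment, and cross-hybridization beyond that was not examined.

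**Figure D2:**
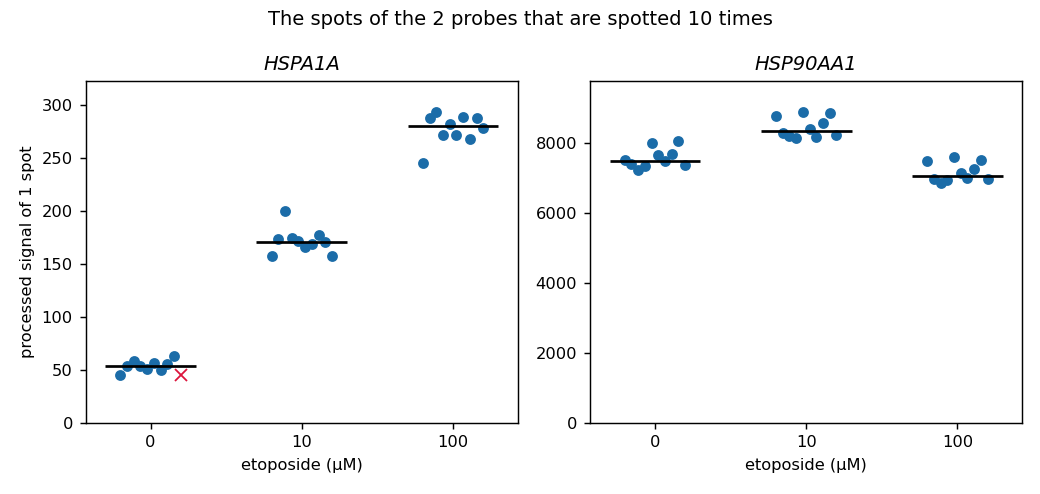
Processed signal of each spot of the 2 probes that are spotted 10 times, for HSPA1A and HSP90AA1, against the etoposide dose (μM). Points are spots, the cross is a spot the software called an outlier, which was left out, and lines are medians. The HSPA1A spots form 3 separate groups, with medians of 53.7, 171 and 280, whereas the HSP90AA1 medians of 7486, 8321 and 7059 differ little.

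HSPA8, the constitutive cytosolic HSP70 (NM_153201; chromosome 11, 122434688 to 122434747), had signals of 7170 in control cells, 8338 at 10 μM and 5488 at 100 μM. It was 1.11-fold higher at 10 μM (log2 0.16 ± 0.064) and at 0.910 of control at 100 μM (log2 -0.14 ± 0.066), so the 2 doses lay on either side of control and 10 μM was 1.22-fold above 100 μM. A second HSPA8 probe (AK310467) was not well above background on any array, at 10.1, 11.3 and 10.9. HSPA5, the HSP70 of the endoplasmic reticulum (NM_005347; chromosome 9, 127036970 to 127037029), had signals of 2619, 2133 and 2417 in the order control, 10 μM, 100 μM. It was the only 1 of the 10 below control at 10 μM, at 0.780 (log2 -0.36 ± 0.060), and was 1.1-fold of control at 100 μM (log2 0.13 ± 0.065), where no scaling gave -0.12, median scaling -0.15 and spike-in scaling -0.04. HSPA1A and HSPA1B were thus both farther above control than HSPA8 or HSPA5 at each dose.

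The 3 partners of HSP70 among the 10 genes were 1.30-fold to 1.54-fold higher than control at both doses as scaled here. Without scaling, the ratios at 100 μM were lower, at 1.30 for DNAJB1, 1.15 for the brighter HSPH1 probe and 1.24 for BAG3. DNAJB1, the J domain protein that stimulates HSP70 and is itself heat-inducible (NM_006145; chromosome 19, 14486803 to 14486862), had signals of 820, 1270 and 1063 in the order control, 10 μM, 100 μM. This was a 1.48-fold change at 10 μM (log2 0.57 ± 0.064) and 1.54-fold at 100 μM (log2 0.62 ± 0.069), and the doses differed by 0.06, less than the error of 0.062. HSPH1, the HSP110 that exchanges nucleotide on HSP70, has 2 probes on chromosome 13 (NM_006644). The brighter (30608796 to 30608855) read 3804, 5270 and 4385, which was 1.33-fold and 1.37-fold over control, and the dimmer (30609509 to 30609568) read 788, 1070 and 923, which was 1.30-fold and 1.39-fold. The 2 probes differed from each other by at most 0.05 on the log2 scale in any of the 3 comparisons. BAG3, a nucleotide exchange factor that links HSP70 to small HSPs and to autophagy (NM_004281; chromosome 10, 121426378 to 121426437), read 387, 523 and 482, a change of 1.30-fold (log2 0.37 ± 0.071) and 1.48-fold (log2 0.57 ± 0.073).

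HSPB1, the small HSP also known as HSP27 (NM_001540), has 2 probes on chromosome 7. The brighter (75771486 to 75771545) read 7843 in control cells, 12027 at 10 μM and 10688 at 100 μM, a change of 1.47-fold (log2 0.56 ± 0.064) and 1.62-fold (log2 0.70 ± 0.065). The dimmer (75769860 to 75769919) read 227, 272 and 245, and its changes of 1.15-fold and 1.28-fold were smaller by 0.36 and 0.34 on the log2 scale. Both probes were above control at both doses, and they disagree on size.

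HSP90AA1, the stress-responsive cytosolic HSP90, was close to control at both doses in its 3 probes on chromosome 14. The brightest (NM_001017963; 101617148 to 101617207) read 25391, 30334 and 21349 in the order control, 10 μM, 100 μM, which was 1.15-fold at 10 μM (log2 0.20 ± 0.059) and no change on the log2 scale at 100 μM (0.00 ± 0.060). The probe spotted 10 times (NM_005348; 101619206 to 101619265) had a median of 7486 in control cells (7212 to 8058), 8321 at 10 μM (8133 to 8872) and 7059 at 100 μM (6860 to 7585). Before scaling, its spots at 10 μM lay above all control spots, and those at 100 μM overlapped control. After scaling, it was 1.07-fold (log2 0.10 ± 0.023) and 1.13-fold (log2 0.17 ± 0.024) of control. The third probe (101619916 to 101619975) read 2069, 2117 and 1686, at 0.980 and 0.969 of control. The 3 probes spanned 0.22 on the log2 scale at each dose, which is larger than any of their changes.

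HSF1, the factor that activates heat shock genes (NM_005526), also differed little. Its brightest probe read 13653, 17051 and 12298 in the order control, 10 μM, 100 μM, which was 1.2-fold (log2 0.26 ± 0.065) and 1.07-fold (log2 0.10 ± 0.067) of control. A second probe that shares 12 bases with it read 13523, 16243 and 12390 and gave 1.15-fold and 1.09-fold. The third HSF1 probe was not well above background on any array, at 11.7, 25.0 and 24.3. HSF1 works through its phosphorylation, trimer formation and entry to the nucleus, none of which an RNA level measures.

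**Figure D3:**
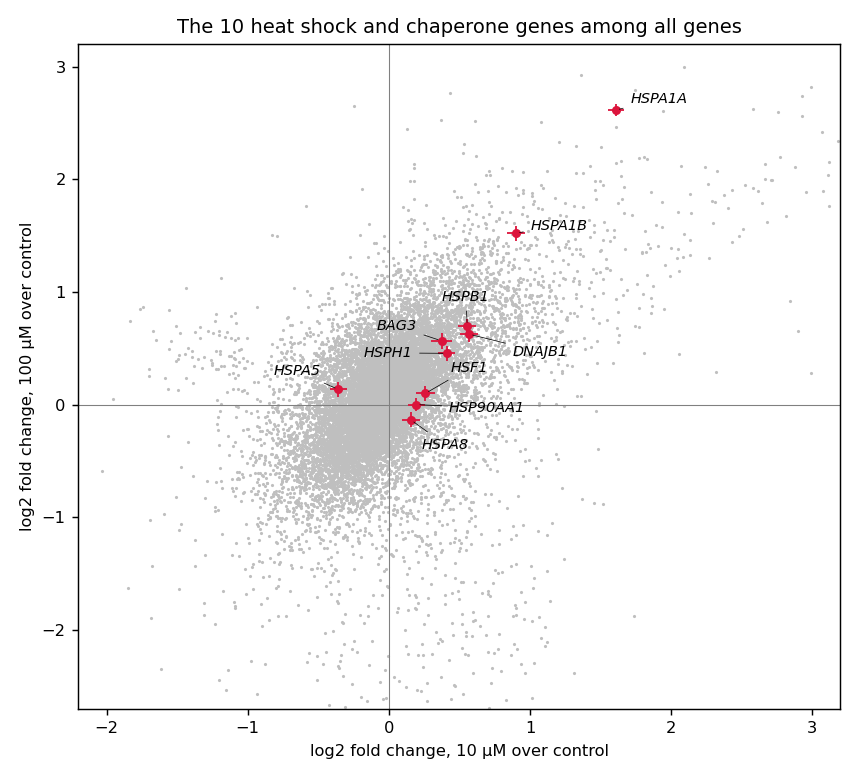
Log2 fold change over control at 10 μM (x axis) and at 100 μM (y axis) etoposide for the 10 genes (red, with the error of the fold change) and all 15178 genes well above background on the 3 arrays (grey, of which 58 lie outside the axes). Both axes use the same control array. HSPA1A (1.61 and 2.61) and HSPA1B (0.90 and 1.52) lie toward the upper edge of the cloud, HSPB1, DNAJB1, BAG3 and HSPH1 form a group between 0.37 and 0.70, and HSPA8, HSP90AA1, HSF1 and HSPA5 lie inside the cloud near 0.

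In the direct comparison of the 2 doses, 3 genes were higher at 10 μM than at 100 μM (HSPA8, HSP90AA1 and HSF1; 39.7% of 16791 genes tested) and 7 were lower (59.7%). HSPA1A was the only 1 of the 10 past 2-fold, lower at 10 μM (3.95% of genes tested), and HSPA1B at 0.651 of 100 μM was the other past 1.5-fold (14.3%). None was lower by 3-fold (0.852%), and none was higher at 10 μM by 1.5-fold (7.47%) or 2-fold (3.63%). At 2.01-fold HSPA1A sat at the threshold, and it was not past it without scaling, with median, quantile or spike-in scaling, or with normexp. The median of the 10 was -0.10, as over all genes, and without scaling the medians were 0.21 and 0.22. In the unscaled signals, HSPA1A was at 0.618 of 100 μM, HSPA1B at 0.808 and HSPA5 at 0.882, so these 3 were lower at 10 μM with or without scaling. The sign for HSPH1, DNAJB1, HSPB1 and BAG3 depended on the scaling. They were below 100 μM by 0.05 to 0.19 on the log2 scale as reported and above it without scaling, by 0.27, 0.26, 0.17 and 0.12.

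**Figure D4:**
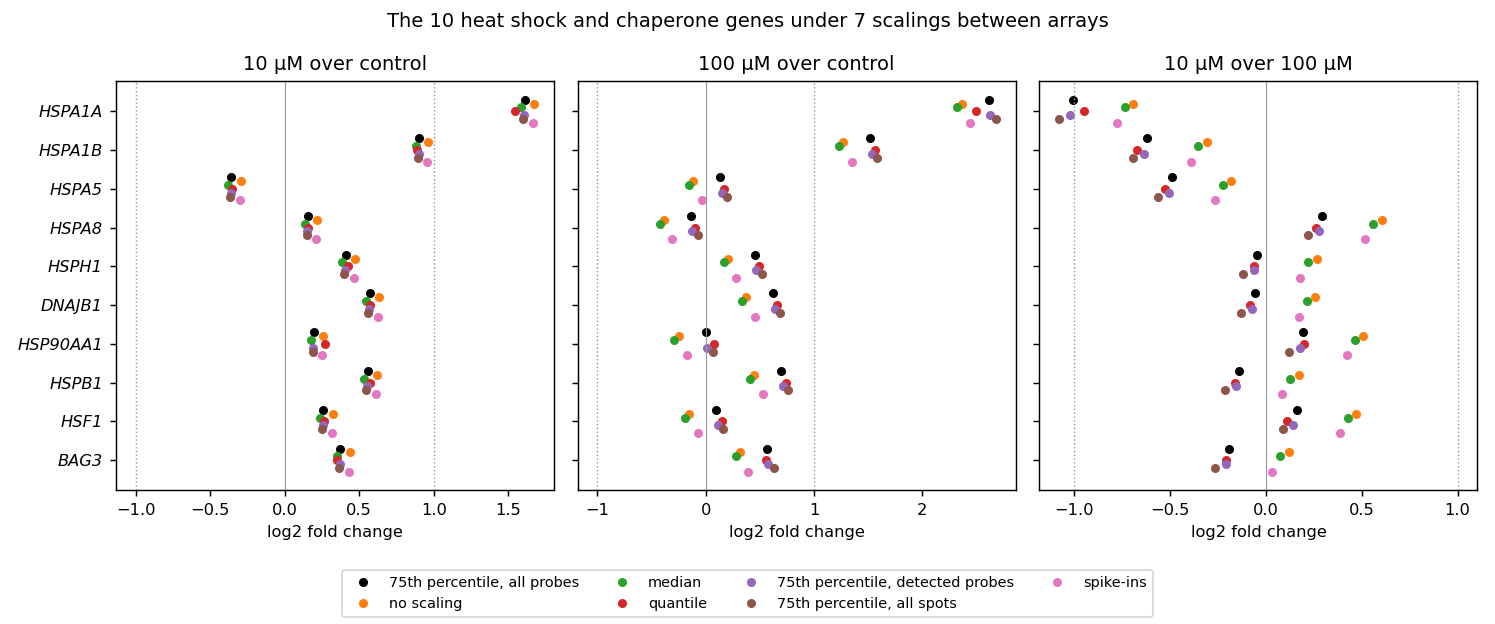
Log2 fold change of each of the 10 genes in the 3 comparisons under 7 ways of scaling the arrays to each other (colors), with 2-fold marked by dotted lines. HSPA1A stays between 1.54 and 1.67 at 10 μM and between 2.32 and 2.68 at 100 μM, HSPA1B stays between 1.23 and 1.59 at 100 μM, and HSPA5, HSP90AA1 and HSF1 fall on both sides of 0 at 100 μM.

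Of 100 other chaperone and cochaperone genes, in lists by compartment and family, 92 could be tested at 10 μM and 94 at 100 μM. At 10 μM 3 were more than 2-fold higher and none was lower by that much, against 3.37% and 1.6% of all genes. At 100 μM 2 were higher and 1 was lower, against 6.76% and 3.66%. Their medians were -0.06 and -0.02 on the log2 scale, below those of the 10 genes at both doses. A list of 15 genes known as heat-inducible, most of them in the lists above, had medians of -0.04 and 0.04, with 6 of 14 and 9 of 15 measured genes higher than control, against 45.2% and 56.9% of all genes tested. Without scaling or with median scaling, 5 of the 15 were higher at 100 μM, and the median there ranged from -0.25 to 0.11 over the 7 scalings.

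HSPA4L, an HSP110 relative of HSPH1, had signals of 145, 415 and 237 in the order control, 10 μM, 100 μM, so it was higher by 1.46 on the log2 scale at 10 μM and 0.96 at 100 μM. DNAJB5, a J domain protein, read 38.5, 113 and 73.0 (1.5 and 1.17), and its second probe was not well above background on any array. HSPB8, the small HSP that BAG3 binds, had a signal of 15.0 on the control array, not well above background, and read 74.7 and 34.5 at 10 and 100 μM, which is at least 3.67-fold and at least 2.11-fold higher. All 3 were higher at 10 μM than at 100 μM, by 0.50, 0.32 and 0.80, the opposite order to HSPA1A and HSPA1B. DNAJA1, a J domain partner of HSPA8, read 2616, 4628 and 3976 (0.76 and 0.85), and DNAJB2 read 3305, 4945 and 5529 (0.52 and 0.99). A dimmer DNAJB2 probe read 115, 98.6 and 230, lower at 10 μM by 0.28 and higher at 100 μM by 1.25. DNAJA2 (-0.56 and -0.36) and BAG2, a nucleotide exchange factor (-0.33 and -0.49), were below control at both doses, and DNAJC7 (-0.54 and 0.39) was below it only at 10 μM.

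Of the other HSP70 and HSP110 genes, 10 in all, some were above control at 100 μM and some below. HSPA6, the strictly inducible HSP70, read 24.7 in control cells, 22.6 at 10 μM (not well above background) and 30.5 at 100 μM. The last was 1.47-fold over control (log2 0.55 ± 0.37), a wide error for signals so near background. Its other probes were not well above background on any array. HSPA12B and HSPA1L were well above background at 100 μM alone, with signals of 31.8 and 24.5. The lower bounds of their fold changes over control were 1.94 and 1.496, the second just under 1.5-fold. HSPA2 was not well above background on any array. HSPA4 (0.14 and -0.08), HSPA12A (-0.39 and -0.30), HSPA13 (-0.39 and -0.53), HSPA14 (0.04 and -0.42) and the mitochondrial HSPA9 (-0.36 and -0.79) were on the log2 scale near or below control. With HSPA4L and, at 100 μM, HSPA6, the list medians were -0.16 over 6 measured genes and -0.30 over 7. In the HSP90 group, HSP90AB1, the constitutive cytosolic form, was at -0.20 and -0.48, and FKBP5, an immunophilin of HSP90 complexes, was at 0.05 and -0.82. CDC37 (0.32 and 0.10), STIP1 (0.12 and 0.29) and UNC45A (0.17 and 0.32), all HSP90 cochaperones, were the highest 2 at 1 dose or the other, PPID was at -0.36 and -0.22, and the medians were -0.01 and -0.07. In the list called small HSPs, membership of that family was not checked. There, CRYAB (-0.17 and -0.05), HSPB2 (0.09 and -0.01) and HSPB11 (0.31 and -0.16) were close to control. HSPB9 read 47.1, 32.8 and 60.9, so 10 μM was below 100 μM by 1.2 on the log2 scale.

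Mitochondrial chaperones and proteases were lower than control at 100 μM in 11 of 11 genes, against 41.9% of all genes tested, with a median of -0.52 that ranged from -0.81 to -0.45 over the 7 scalings, under which 10 or 11 were lower, compared with 0.09 over all genes as scaled here. At 10 μM 9 of 11 were lower (54.4% of all genes tested) with a median of -0.22. GRPEL2, a nucleotide exchange factor of the mitochondrial HSP70, was the 1 gene of these lists more than 2-fold lower, with signals of 1236, 997 and 376 (-0.37 and -1.47). HSPD1, the mitochondrial HSP60, read 128366, 111857 and 75424 (-0.26 and -0.52), its partner HSPE1 was at -0.22 and -0.33, TRAP1, the mitochondrial HSP90, at -0.18 and -0.57, and DNAJA3 at -0.40 and -0.58. CLPX (-0.12 and -0.21), CLPB (0.01 and -0.32) and GRPEL1 (0.05 and -0.02) were nearer to control. All 11 were higher at 10 μM than at 100 μM as scaled here (at least 10 under each scaling), against 39.7% of all genes tested, the opposite of HSPA1A.

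The cytosolic chaperonin and prefoldin genes, which fold actin and tubulin, were near control at 10 μM (median -0.03) and lower in 10 of 14 genes at 100 μM (median -0.32), against 41.9% of all genes tested. Over the 7 scalings 10 to 14 were lower at 100 μM and the median ranged from -0.61 to -0.26. Examples were CCT2 (-0.12 and -0.60), CCT8 (-0.23 and -0.56) and PFDN2 (-0.16 and -0.57). CCT6A (0.09 and -0.19), CCT6B (-0.01 and 0.28) and PFDN6 (-0.25 and 0.22) differed less or in the other direction, and CCT5, higher by 0.52 at 10 μM, was not well above background at 100 μM. In the endoplasmic reticulum, to which HSPA5 belongs, the 21 other genes had medians of 0.00 and 0.09. CRELD2 (0.55 and 0.81) and MANF (0.36 and 0.72), both targets of the unfolded protein response, were the highest, and HERPUD1 (-0.44 and -0.25) was the lowest at both doses. SEL1L (-0.39 and 0.09) was next lowest at 10 μM alone, and SIL1 (-0.07 and -0.08) at 100 μM alone. A dimmer SEL1L probe gave -0.24 and 0.40. Of these 21 genes, 18 were above control at 100 μM as scaled here (56.9% of all genes tested), but 2 to 13 were below it depending on the scaling, and the median ranged from -0.20 to 0.15. Of the other heat shock factors, HSF2 was at -0.22 and -0.53 and HSF4 at -0.36 and 0.53, and the HSF-binding protein HSBP1 at 0.06 and 0.15, while its dimmer probe gave -0.25 and -0.07.

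**Figure D5:**
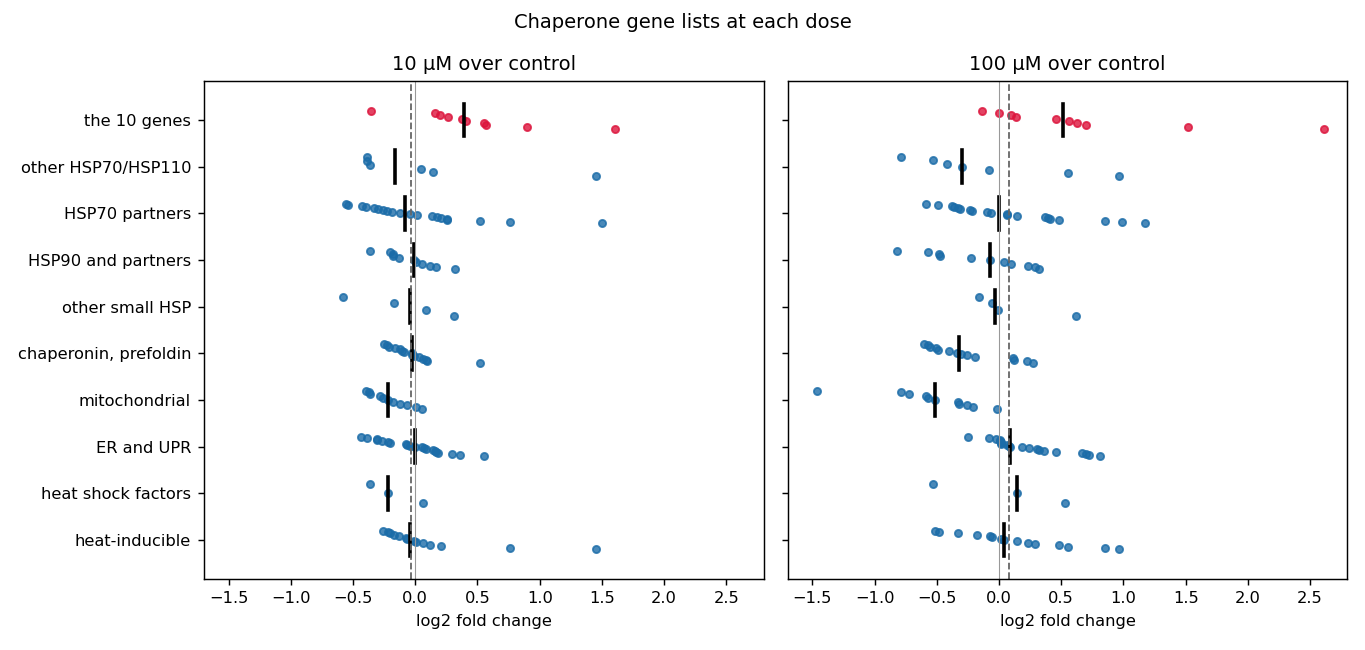
Log2 fold change over control at 10 μM (left) and 100 μM (right) etoposide for the 10 genes (red) and the other chaperone lists (blue). Points are genes well above background on both arrays, short bars are list medians, and the dashed line is the median of all genes. The medians of the 10 genes (0.39 and 0.51) lie right of all genes, whereas the mitochondrial list (-0.22 and -0.52) lies left.

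The labelled cell line was checked with marker genes. All 10 hepatocyte markers were well above background on every array, with AFP at 79159 in control cells, and their summed signal was 246320, 265194 and 264752 in the order control, 10 μM, 100 μM. Fibroblast markers were above background in at most 1 of 7 genes, with COL1A1, COL1A2, COL3A1, DCN, LUM and THY1 on no array, and their summed signal was 124, 104 and 70.8. Endothelial markers were above background in 2 to 3 of 4 genes, with sums of 535, 369 and 360. Blood and immune markers were above background in 4 of 6 genes, with ITGAM and HBB on no array, and their sum of 1640, 2074 and 2871 moved in the same order as HSPA1A, mostly through CD14 at 521, 1184 and 1847. All 3 cultures were of the HepG2 line, and these signals do not show that another cell type was present. The part of these markers in the results was not tested. In RNA from whole cultures, fewer cells of a kind and less RNA per cell cannot be told apart.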

How the data were processed

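RNA from HepG2 cells in 3 conditions was profiled on 1-color arrays, 1 for each, and conditions were taken from the labels. The authors deposited, per array, the scanner output of Agilent Feature Extraction (version 10.7.3.1, per the labels) giving background-subtracted intensities for each spot, and a table of the series whose values equal these intensities at 44495 of 44495 spots (relative tolerance 1e-04). Scaling between arrays had not been applied. Log2 intensities were averaged over the spots of a probe without outlier spots, and the 75th percentile over all non-control probes of the array was subtracted. A fold change required a signal well above background on the brighter array, and a dimmer signal was raised to the lowest signal well above background (19.5 in control cells, 22.7 at 10 μM and 21.6 at 100 μM), which gives a bound ("at least"). The 10 genes and all lists were chosen with earlier results of these data known. All probes of the 10 genes are given. Of the other lists, genes past 2-fold and the 2 highest and 2 lowest at each dose are named, and HSPA1L, HSPA2, HSPA12B and HSPA14 were added after their values were seen. Symbols are those of the array design, and all 10 are current in RefSeq, as are 99 of the 100 others. With 1 array per condition no test was possible and no batch could be fitted. The steps were tested on simulated arrays. Alternatives were other scalings, normexp background correction (offset 50), other treatment of dim probes, outlier spots and genes with several probes, the series table, and fold thresholds of 1.5 and 3. Python 3.11.15, pandas 2.3.3, numpy 2.4.6, matplotlib 3.10.9, R 4.3.3 and limma 3.58.1 were used.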

Additional observations from a re-analysis of the deposited data

How the results depend on the processing

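Of the 360 values of the 10 genes under 12 alternative settings, 266 moved by less than the error of the fold change and 94 by more. Of the 360, 21 changed sign, none of them at 10 μM over control. At 100 μM over control, 9 changed sign, in HSPA5, HSP90AA1 and HSF1, and between the doses 12, in HSPH1, DNAJB1, HSPB1 and BAG3. The 1 gene past 2-fold at 10 μM was 0 with normexp and 2 at a threshold of 1.5. The 2 past 2-fold at 100 μM were 4 at 1.5 and 1 at 3. Their median of 0.51 was 0.26 without scaling, 0.22 with median scaling and 0.34 with spike-in scaling. Between the doses, the 1 gene past 2-fold (HSPA1A) was 0 without scaling and with median, quantile or spike-in scaling, normexp or a threshold of 3, and 2 at 1.5. The median of -0.10 was 0.21 without scaling, 0.17 with median scaling, 0.13 with spike-in scaling and -0.17 with the percentile over all spots. Relative to the percentile used, the median of all genes moved at 100 μM over control by -0.25 without scaling, -0.29 with median scaling and -0.17 with spike-in scaling, and between the doses by 0.31, 0.27 and 0.23. The cause was not tested.

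The number of arrays, 1 per condition, limits the precision. The spot-to-spot SD leaves out differences between cultures. Among the 10 genes, the control signal of HSPA1A was under 3 times the lowest signal called well above background. The same held for DNAJB5, HSPB8, HSPB9, HSPA6, HSPA12B, HSPA1L and CCT5, whose fold changes are less certain. No paired analysis was possible because there was only 1 array per condition.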
